A study of Mus musculus with 24 samples.

Results

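The genes described here are 10 members of the insulin-like growth factor (IGF) and insulin signalling pathway in mouse muscle. They comprise the ligands Igf1 and Igf2, the receptors Igf1r and Insr, the receptor substrates Irs1 and Irs2, and the binding proteins Igfbp3, Igfbp4, Igfbp5 and Igfbp6. They were picked by name from a table of 43346 genes. All 10 were found there and all 10 were among the 17773 genes that passed the filter on low counts.

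The RNA came from gastrocnemius, a calf muscle, of C57BL6 mice. LLC1 cells come from the mouse Lewis lung carcinoma and are called lung adenocarcinoma in the labels, and phosphate-buffered saline (PBS) was the vehicle. The cells or the vehicle were given under the skin at 7 weeks of age, and tumours had 3 weeks to grow. The 4 groups were female LLC1, female vehicle, male LLC1 and male vehicle mice, with 6 mice in each. The design asks how a growing LLC1 tumour alters muscle RNA in each sex, and no tumour size is analysed here. The titles number the libraries without saying what the numbers stand for. No 2 libraries of a group carry the same number, so each was taken as a separate mouse. P-values reflect the variation among these libraries.

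IGF1 and insulin bind related receptor tyrosine kinases, which phosphorylate the receptor substrates IRS1 and IRS2. These recruit phosphatidylinositol 3-kinase, which activates AKT. In muscle, AKT favours glucose uptake and protein synthesis and holds FoxO transcription factors out of the nucleus, where they activate genes of protein breakdown. IGF-binding proteins carry IGFs in blood and tissue fluid and set how much ligand reaches the receptor. FoxO factors are also known to activate Irs2 and Insr, so that the abundance of these transcripts is itself under insulin control in several tissues.

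Promoters of the receptor substrates are shown as a description, because both hold the same short motifs. Irs2 was called in male LLC1 mice and Irs1 was not, and the part of these motifs in that was not tested. The sequences are the 250 bases before the RefSeq start (build GRCm38.p6), read on the gene's strand. Capitals mark CACGTG, an E-box bound by factors such as USF and TFE3, and TGTTTTG, an insulin response element bound by FoxO factors. The Irs2 promoter lies at chr8:11008930-11009179 and the Irs1 promoter at chr1:82291440-82291689, both on the minus strand.
Irs2: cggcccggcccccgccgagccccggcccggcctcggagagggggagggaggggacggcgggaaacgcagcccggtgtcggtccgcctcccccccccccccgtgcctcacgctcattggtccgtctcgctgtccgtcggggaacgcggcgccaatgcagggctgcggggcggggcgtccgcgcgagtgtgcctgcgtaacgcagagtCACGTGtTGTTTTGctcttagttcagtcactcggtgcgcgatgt
Irs1: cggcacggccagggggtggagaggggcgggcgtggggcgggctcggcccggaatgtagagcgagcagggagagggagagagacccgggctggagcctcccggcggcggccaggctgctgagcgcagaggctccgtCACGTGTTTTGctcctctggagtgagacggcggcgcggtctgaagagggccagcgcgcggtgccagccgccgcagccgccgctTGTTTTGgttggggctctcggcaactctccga
The E-box of Irs2 lay 44 to 39 bases before the start, with TGTTTTG at 37 to 31 bases. In Irs1 the E-box lay 115 to 110 bases before the start. It shared its last letters with an insulin response element at 111 to 105 bases, and another such element lay at 32 to 26 bases. Over 32851 promoters (250 bases before to 50 after the start, both strands), CACGTG occurred in 7.15%, TGTTTTG in 6.28% and both in 0.408%. Of the 10 genes, 9 had a promoter in the RefSeq table, 12 promoters in all, and Irs1 and Irs2 were the 2 genes that held both. The other letters searched were the forkhead core GTAAACA (3.65% of promoters) and the STAT palindrome TTCNNNGAA (8.3%), neither found in the 12 promoters. The glucocorticoid receptor palindrome (0.0396%) was not found there either. The C/EBP letters TTNNGNAA (40.7%) lay in promoters of Igf1r, Igf2 and Igfbp5, and TATAAA (13.6%) in those of Igfbp4 and Igfbp6. The 7 motifs were chosen with results and sequences in view, and a match is a description of letters, not a sign of binding.

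Libraries held 26.2 to 47.4 M (mega-counts), and the 10 genes had 219 (Igf1r) to 30077 (Igfbp5) counts in a library. Skeletal muscle fibre markers (7 genes) summed to 110130 to 169321 CPM (counts per mega-count of scaled library) in female LLC1, 130588 to 165016 in female vehicle, 106510 to 164958 in male LLC1 and 131224 to 175914 in male vehicle mice. Epithelial markers (5 genes, including Epcam and Krt8) each averaged under 1 CPM in every group. The labels place all libraries of a group in a single lane that no other group used, and the effects of lane and group cannot be told apart. With LLC1, edgeR's quasi-likelihood test called 3 of the 10 genes in females (2 higher, 1 lower) and 6 in males (3 higher, 3 lower), at a Benjamini-Hochberg adjusted p under 0.05. Over all tested genes the test called 9.92% in females (4.97% higher, 4.95% lower) and 36.3% in males (19.5% higher, 16.8% lower). The median log2 fold change of the 10 genes was 0.04 in females, against -0.01 over all genes, and -0.07 in males, against 0.01.

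**Figure D1:**
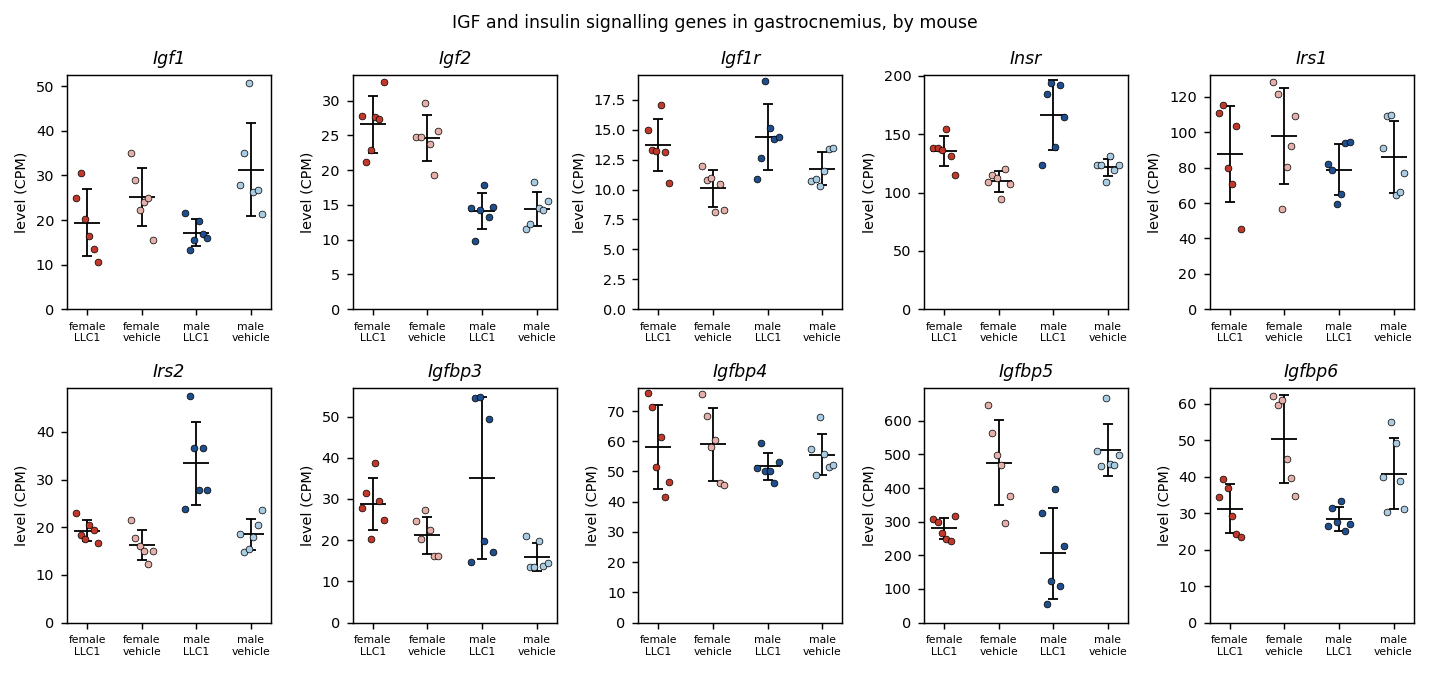
Level of each of the 10 genes in CPM (vertical axes, from 0) in each mouse (points) of the 4 groups, with the group mean and SD (bars, n = 6). Irs2 in male LLC1 mice (23.9 to 47.5 CPM) lies above the male vehicle mice, Igfbp5 in male LLC1 mice (54.1 to 397 CPM) lies below them, and Igf2 separates the sexes.

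Per kilobase of gene length Igfbp5 and Igfbp6 were the most abundant of the 10 transcripts in every group, and Igf1, Igf2 or Igf1r was the least. Igfbp5 averaged 46.6, 79.2, 34.4 and 85.5 FPKM in female LLC1, female vehicle, male LLC1 and male vehicle mice. Igfbp6 came next in all 4 groups, at 28.0, 45.2, 25.5 and 36.6 FPKM in the same order. The mice of the pair did not overlap in female LLC1 and male vehicle mice, and did in the other groups. Igf1 averaged lowest in both LLC1 groups, at 1.96 FPKM in female LLC1 and 1.73 FPKM in male LLC1 mice. It overlapped there with the next gene up, Igf1r in females and Igf2 in males. In vehicle mice the lowest was Igf1r in females (2.25 FPKM) and Igf2 in males (2.51 FPKM), and these overlapped with their neighbours in the order. Insr, Igfbp4 and Irs1 averaged between 8.63 and 17.3 FPKM. Insr and Igfbp4 overlapped in every group, and Irs1 overlapped neither of them in male LLC1 mice. The highest Irs1 there was 10.3 FPKM, against 10.4 FPKM for the lowest Igfbp4. The level of Irs1 is itself uncertain, as given with the receptor substrates. Irs1 also lay clear of Igfbp3, the next gene down, in male vehicle mice. Irs2 averaged 8.29 FPKM in male LLC1 mice, where no mouse overlapped with Igf1r, the next gene down, at 3.20 FPKM.

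**Figure D2:**
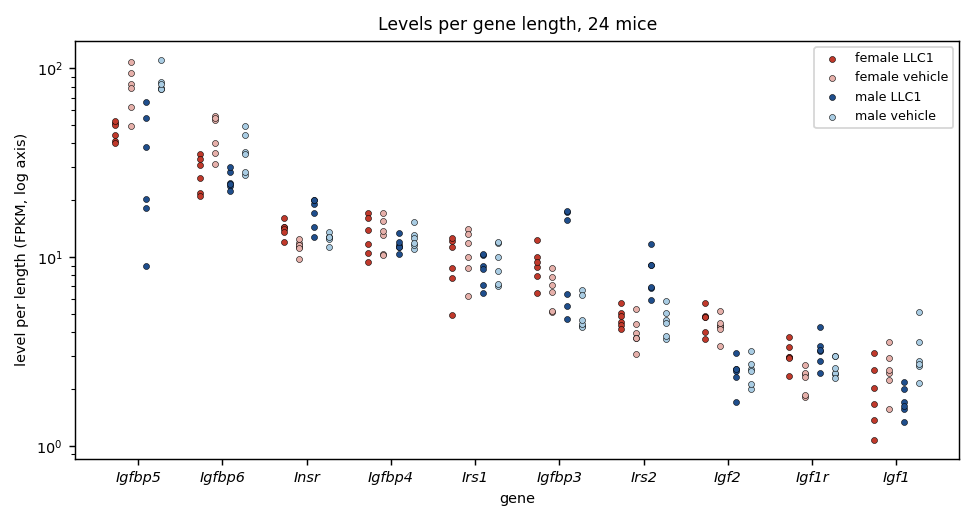
Level per gene length of the 10 genes in FPKM (vertical log axis) in each of 24 mice, coloured by group. Igfbp5 and Igfbp6 lie highest, and Igf1, Igf1r and Igf2 lie between about 1 and 6 FPKM, with Igf1 lowest on average in both LLC1 groups.

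Among the ligands, Igf1 fell in male LLC1 mice and Igf2 did not pass the test in either sex. Igf1 (ENSMUSG00000020053, mm10 chromosome 10, 87858265 to 87937042) encodes the growth factor that liver releases under growth hormone and that muscle also makes for itself. Its lowest, median and highest levels were 13.2, 16.5 and 21.5 CPM in male LLC1 mice, against 21.2, 27.3 and 50.6 CPM in male vehicle mice. The groups overlapped by 1 mouse: 5 of 6 LLC1 mice lay below all vehicle mice. The fold was 0.548 (log2 fold change -0.87 ± 0.23 SE, adjusted p = 0.00616). In females the levels were 10.7, 18.3 and 30.6 CPM with LLC1 and 15.5, 24.5 and 35.0 CPM with vehicle, and the groups overlapped over most of their range. The female log2 fold change was -0.37, with a 95% confidence interval from -0.85 to 0.11 (adjusted p = 0.326). In bulk muscle, fewer cells of a type and less RNA per cell cannot be told apart. Macrophages and fibro-adipogenic progenitors, the mesenchymal cells between fibres, are known sources of Igf1. The 10 macrophage and monocyte markers (1 of 10 higher in males, none called in females) summed to 229 to 308 CPM in male LLC1 and 184 to 316 CPM in male vehicle mice. The progenitor markers are given with the binding proteins. The part of these cells in the fall of Igf1 was not tested.

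Igf2 (ENSMUSG00000048583, chromosome 7, 142650766 to 142666816) encodes the fetal growth ligand, an imprinted gene read from the paternal copy. Its levels were 21.1, 27.5 and 32.6 CPM (lowest, median, highest) in female LLC1 mice and 19.4, 24.8 and 29.6 CPM in female vehicle mice. Male LLC1 mice had 9.80, 14.4 and 17.8 CPM, and male vehicle mice 11.5, 14.4 and 18.3 CPM. Within each sex the LLC1 and vehicle mice overlapped almost fully (log2 fold change 0.11, interval -0.15 to 0.37, in females, and -0.04, interval -0.30 to 0.23, in males). The sexes did not overlap at all, as given with the male and female comparison.

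Both receptors rose in female LLC1 mice, and Insr rose in males as well. Insr (ENSMUSG00000005534, chromosome 8, 3150922 to 3279617) encodes the insulin receptor. Its lowest, median and highest levels were 123, 175 and 194 CPM in male LLC1 mice and 109, 123 and 131 CPM in male vehicle mice. All but the lowest male LLC1 mouse lay above every vehicle mouse. The log2 fold change was 0.45 ± 0.10 (fold 1.37, adjusted p = 0.00108). Female LLC1 mice had 115, 137 and 155 CPM, against 94.3, 111 and 120 CPM in female vehicle mice, again with 5 of 6 above all vehicle mice. The female change was 0.31 ± 0.10 (fold 1.24, adjusted p = 0.0424). That call lay close to the threshold and ended when any one of 10 libraries was left out, at adjusted p = 0.0503 to 0.0933. These were female LLC1 mice 1-4, 1-5, 2-1, 2-3 and 2-4, female vehicle mice 1-4, 2-1 and 2-3, and male vehicle mice 1-1 and 2-4, the male mice entering through the shared estimate of spread.

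Igf1r (ENSMUSG00000005533, chromosome 7, 67952859 to 68226780) encodes the type 1 IGF receptor, through which IGF1 drives muscle growth. Its levels were 10.5, 13.3 and 17.0 CPM in female LLC1 mice and 8.16, 10.6 and 12.0 CPM in female vehicle mice. The groups met at 1 LLC1 mouse, and 5 of 6 lay above all vehicle mice (log2 fold change 0.44 ± 0.13, adjusted p = 0.0276). The call ended when any one of 4 female mice was left out: LLC1 mouse 1-4 (adjusted p = 0.0517), LLC1 mouse 2-3 (0.0776), vehicle mouse 2-1 (0.0637) and vehicle mouse 2-3 (0.0569). Male LLC1 mice had 10.9, 14.3 and 19.1 CPM and male vehicle mice 10.3, 11.2 and 13.5 CPM. The male difference was 0.29 ± 0.13 (interval 0.03 to 0.56) and did not pass (adjusted p = 0.0671). It passed without male LLC1 mouse 1-4 (0.0209) or male vehicle mouse 2-5 (0.0498).

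The receptor substrates parted ways in males: Irs2 rose and Irs1 did not pass. Irs2 (ENSMUSG00000038894, chromosome 8, 10986980 to 11008458) encodes the substrate known for its fast transcriptional control by fasting and insulin in liver. Its lowest, median and highest levels were 23.9, 32.2 and 47.5 CPM in male LLC1 mice, against 14.8, 18.3 and 23.6 CPM in male vehicle mice. Every LLC1 mouse lay above every vehicle mouse. Irs2 and Igfbp5 were the 2 of 10 genes whose male groups did not overlap, against 10.3% of all tested genes. In females the groups overlapped for all 10 genes, while 6.55% of all tested genes had none. The male log2 fold change of Irs2 was 0.85 ± 0.15 (fold 1.81, adjusted p = 2.02e-04). Female LLC1 mice had 16.8, 18.9 and 23.0 CPM and female vehicle mice 12.3, 15.5 and 21.4 CPM, overlapping for most mice. The female difference was 0.24 ± 0.15 (interval -0.07 to 0.55, adjusted p = 0.318).

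Irs1 (ENSMUSG00000055980, chromosome 1, 82233101 to 82291416) encodes the main receptor substrate of skeletal muscle. Its levels were 59.2, 80.3 and 94.5 CPM in male LLC1 mice and 64.3, 84.1 and 110 CPM in male vehicle mice. In females they were 45.3, 91.8 and 115 CPM with LLC1 and 56.6, 101 and 128 CPM with vehicle. All 4 groups overlapped widely, and neither sex passed (log2 fold change -0.13 in males, interval -0.57 to 0.31, and -0.16 in females, interval -0.60 to 0.28). Irs1 shares 2822 exon bases with Gm9747 on the opposite strand, whose row held 33437 counts, 43.2% of the 77468 of Irs1. The library kit keeps no strand, so reads over the shared bases cannot be told apart. How such reads were counted was not given, and the level of Irs1 is uncertain. For the other 9 genes, overlapping genes held at most 3.19% of the member's counts (a lincRNA at Irs2 that shares 162 bases).

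**Figure D3:**
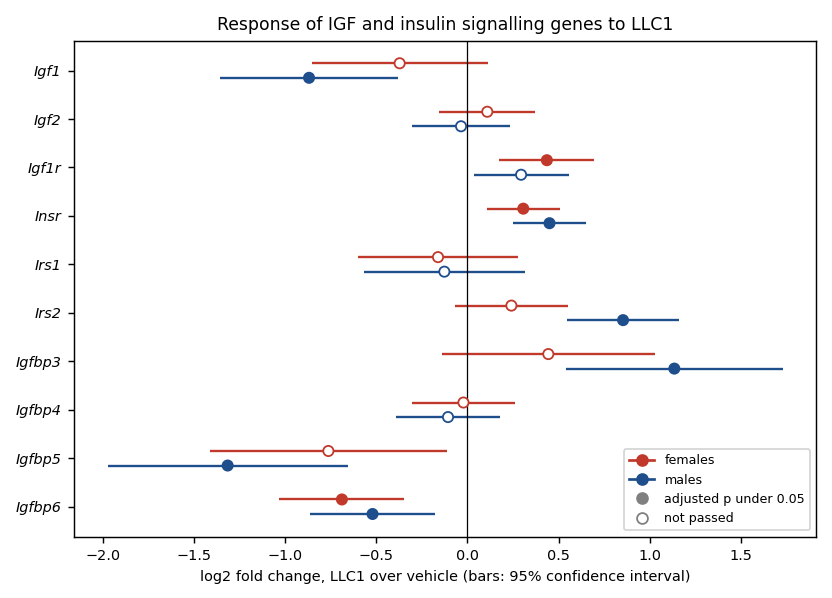
Log2 fold change, LLC1 over vehicle, of the 10 genes (horizontal axis) in females (red) and males (blue), with 95% confidence intervals as bars. Filled points passed an adjusted p of 0.05: 3 in females and 6 in males, with Igfbp5 (-1.32) and Igfbp3 (1.14) farthest from 0 in males.

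The binding proteins moved in both directions: Igfbp5 and Igfbp6 fell in male LLC1 mice, Igfbp3 rose, and Igfbp4 did not pass. Igfbp5 (ENSMUSG00000026185, chromosome 1, 72857932 to 72874884) encodes the main IGF-binding protein of muscle fibres and the matrix around them. Its lowest, median and highest levels were 54.1, 176 and 397 CPM in male LLC1 mice, against 466, 484 and 667 CPM in male vehicle mice. Every LLC1 mouse lay below every vehicle mouse. The spread among LLC1 mice was wide, with an SD of 65.4% of the mean. The log2 fold change was -1.32 ± 0.31 (fold 0.402, adjusted p = 0.00292). In females the levels were 242, 283 and 316 CPM with LLC1 and 297, 484 and 647 CPM with vehicle, with 3 of 6 LLC1 mice below all vehicle mice. The female difference was -0.76 ± 0.31 (interval -1.41 to -0.11, adjusted p = 0.122). It passed in a fit of the female mice alone (adjusted p = 0.00593) and without male LLC1 mouse 1-5 (0.0440), the male mouse with the lowest Igfbp5.

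Igfbp6 (ENSMUSG00000023046, chromosome 15, 102144362 to 102149511) encodes the binding protein that prefers IGF2 to IGF1. It was the single gene of the 10 called lower in both sexes. Igf1, Irs1, Igfbp4 and Igfbp5 also had negative log2 fold changes in both sexes, but none of them was called in females. Female LLC1 mice had 23.3, 31.8 and 39.3 CPM, against 34.5, 52.2 and 62.2 CPM in female vehicle mice. Male LLC1 mice had 25.0, 27.2 and 33.4 CPM, against 30.2, 39.5 and 54.8 CPM in male vehicle mice. In each sex 4 of 6 LLC1 mice lay below all vehicle mice. The log2 fold change was -0.69 ± 0.16 in females (fold 0.620, adjusted p = 0.00967) and -0.52 ± 0.17 in males (fold 0.697, adjusted p = 0.0166).

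Igfbp3 (ENSMUSG00000020427, chromosome 11, 7206086 to 7213923) encodes the main carrier of IGFs in blood. In male LLC1 mice its level was 54.5, 54.8 and 49.3 CPM in mice 1-5, 2-1 and 2-4, and 14.8, 19.9 and 17.2 CPM in mice 1-4, 2-2 and 2-5. Male vehicle mice had 13.4, 14.1 and 20.9 CPM (lowest, median, highest). The rise therefore came from 3 of 6 LLC1 mice, and the other 3 lay within the vehicle range. The log2 fold change of the groups was 1.14 ± 0.29 (fold 2.20, adjusted p = 0.00405). Female LLC1 mice had 20.2, 28.6 and 38.7 CPM and female vehicle mice 16.1, 21.4 and 27.3 CPM, with 4 of 6 above all vehicle mice. The female difference was 0.44 ± 0.28 (interval -0.14 to 1.03, adjusted p = 0.336).

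Igfbp4 (ENSMUSG00000017493, chromosome 11, 99041244 to 99054392), an inhibitory binding protein cut by the protease pappalysin, averaged 51.7 ± 4.39 CPM in male LLC1 and 55.6 ± 6.86 CPM in male vehicle mice (SD, n = 6 each). It averaged 58.1 ± 13.8 CPM in female LLC1 and 59.0 ± 12.0 CPM in female vehicle mice. The ranges of the groups overlapped in both sexes (log2 fold change -0.11, interval -0.39 to 0.18, in males, and -0.02, interval -0.30 to 0.26, in females).

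Igfbp4, Igfbp5 and Igfbp6 are transcribed by connective tissue cells as well as by fibres. The 10 markers of fibro-adipogenic progenitors summed to 1601 to 2836 CPM in female LLC1, 2211 to 3844 CPM in female vehicle, 2162 to 2595 CPM in male LLC1 and 2768 to 3756 CPM in male vehicle mice. Of these markers 1 rose and 3 fell in females, and 1 rose and 7 fell in males. The 6 tendon cell markers (none called in females, 2 lower in males) summed to 146 to 251 CPM in male LLC1 and 150 to 678 CPM in male vehicle mice. The 6 smooth muscle cell and pericyte markers (none called in females, 4 lower in males) summed to 334 to 454 CPM in male LLC1 and 435 to 553 CPM in male vehicle mice. Endothelial markers (8 genes) summed to 313 to 407 CPM in male LLC1 and 277 to 429 CPM in male vehicle mice, with 2 higher and 2 lower in males and 2 higher in females. Female LLC1 mice had sums of 68.3 to 779 (tendon), 367 to 504 (smooth muscle cell and pericyte) and 261 to 440 CPM (endothelial). Female vehicle mice had 105 to 503, 405 to 476 and 259 to 346 CPM in the same order. Of the 5 satellite cell markers, 2 fell in each sex, and Calcr averaged under 1 CPM in every group. The 8 neutrophil markers all rose in both sexes, to sums of 60.5 to 163 CPM in female LLC1 and 59.8 to 170 CPM in male LLC1 mice, against 1.79 to 3.18 CPM in female vehicle and 1.34 to 3.71 CPM in male vehicle mice. None of the 5 adipocyte markers was called with LLC1. The part of these cells in the changes of the binding proteins was not tested.

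The male LLC1 mice were not alike, and several of the 10 genes took their extremes in the same animals. In mice 1-4, 1-5, 2-1, 2-2, 2-4 and 2-5, in that order, Insr stood at 123, 185, 194, 139, 192 and 165 CPM. Irs2 stood at 23.9, 47.5, 36.7, 27.7, 36.6 and 27.8 CPM in the same mice, and Igfbp5 at 326, 54.1, 123, 397, 109 and 229 CPM. The 3 highest values of Insr, Irs2 and Igfbp3 and the 3 lowest of Igfbp5 all came from mice 1-5, 2-1 and 2-4. Igf1 stood at 21.5, 13.2, 15.6, 19.8, 16.9 and 16.0 CPM. It was lowest in mice 1-5 and 2-1 and highest in mice 1-4 and 2-2, while mouse 2-5 lay below mouse 2-4. Fbxo32, which encodes the muscle ubiquitin ligase atrogin-1 and is a known FoxO target, stood at 978, 3974, 2333, 909, 3489 and 2287 CPM, against 291 to 517 CPM in male vehicle mice. These mice were singled out after their values were seen, as a description, and no test was made between them.

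**Figure D4:**
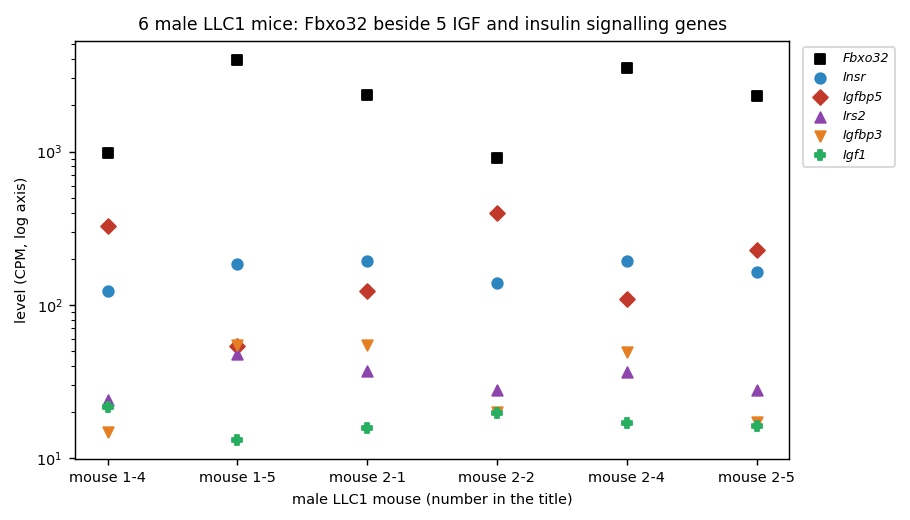
Level in CPM (vertical log axis) of Fbxo32 and of 5 of the 10 genes in each of the 6 male LLC1 mice (horizontal axis, number from the title). In mice 1-5, 2-1 and 2-4, Igfbp3 and Irs2 lie high and Igfbp5 low.

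Whether the response to LLC1 differed between the sexes was tested as an interaction. None of the 10 genes, and 0% of all tested genes, passed with edgeR at an adjusted p under 0.05. At an unadjusted p under 0.05 the test counted 1 of the 10 genes and 2191 of all 17773 tested genes. DESeq2 likewise passed 0 of the 10 genes, with 44 of all genes, and limma-voom 0 of the 10 with 0 of all. Irs2 had the smallest p of the 10, with a difference of 0.61 ± 0.21 in log2 fold change, male minus female (interval 0.18 to 1.05, unadjusted p = 0.00716, adjusted p = 0.286). For Igf1 the difference was -0.50, with an interval of -1.18 to 0.19, and for Igfbp5 -0.55, with an interval of -1.47 to 0.36. Calls in males and not in females are therefore not shown to be changes that differ between the sexes.

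Male and female mice were also compared within each treatment. These comparisons use the same libraries as those of LLC1 with vehicle, so their calls are not separate evidence. In LLC1 mice 3 of the 10 genes were called, with Irs2 and Insr higher and Igf2 lower in males, against 15.7% of all tested genes (9.62% higher, 6.07% lower). Irs2 had 23.9 to 47.5 CPM in male and 16.8 to 23.0 CPM in female LLC1 mice, without overlap (log2 fold change 0.79 ± 0.15, adjusted p = 0.00135). Insr was higher in male LLC1 mice by 0.29 ± 0.10 (adjusted p = 0.0376), with 4 of 6 males above all females. That call ended without any one of 11 libraries, at adjusted p = 0.0508 to 0.124. These were female LLC1 mice 1-4, 1-5, 2-1, 2-4 and 2-5, female vehicle mice 1-1, 1-3 and 2-3, and male LLC1 mice 1-5, 2-1 and 2-4. In vehicle mice Igf2 was the only one of the 10 that passed, against 6.23% of all tested genes (2.95% lower in males).

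Igf2 was lower in males in both treatments. Every male lay below every female, at 9.80 to 17.8 CPM in male against 21.1 to 32.6 CPM in female LLC1 mice, and 11.5 to 18.3 CPM in male against 19.4 to 29.6 CPM in female vehicle mice. Groups without overlap made up 3.51% of all tested genes in LLC1 mice and 4.31% in vehicle mice. The log2 fold change, male over female, was -0.92 ± 0.13 in LLC1 mice (adjusted p = 5.39e-05) and -0.77 ± 0.13 in vehicle mice (adjusted p = 4.42e-04). H19, the noncoding neighbour of Igf2 that is read from the maternal copy, averaged 408 ± 100.3 CPM in male and 776 ± 204 CPM in female LLC1 mice (log2 fold change -0.93 ± 0.22, adjusted p = 0.00665). In vehicle mice it averaged 370.1 ± 170.0 CPM in males and 789 ± 97.5 CPM in females (-1.09 ± 0.22, adjusted p = 0.00321). Grb10, an imprinted adaptor that dampens insulin and IGF1 receptor signalling, averaged 45.0 ± 8.90 CPM in male and 76.6 ± 4.98 CPM in female LLC1 mice, without overlap (-0.77 ± 0.14, adjusted p = 0.00102). In vehicle mice it averaged 54.0 ± 12.1 CPM in males and 90.3 ± 14.7 CPM in females, again without overlap (-0.74 ± 0.14, adjusted p = 0.00158). Igf2r, the clearance receptor of IGF2 and also imprinted, was at -0.01 in LLC1 and 0.08 in vehicle mice and did not pass. These 3 genes were set beside Igf2 as imprinted genes after their values had been seen. Markers of other cells were compared between the sexes as well. The 5 adipocyte markers all had negative log2 fold changes, male over female, with a median of -1.15 in LLC1 mice, where 1 was called, and -1.32 in vehicle mice, where 0 were called. Their sums were 251 to 340 CPM in male and 232 to 782 CPM in female LLC1 mice, and 167 to 481 CPM in male and 272 to 901 CPM in female vehicle mice. In LLC1 mice 2 of 10 progenitor and 2 of 6 smooth muscle cell and pericyte markers were lower in males. So were 1 of 8 endothelial and 1 of 5 satellite cell markers. Over all tested genes 6.07% were lower in male LLC1 mice, and 15.7% were called in either direction. In vehicle mice 1 smooth muscle cell and pericyte marker was higher, against 6.23% of all tested genes called in either direction. None of the 6 tendon cell markers was called, with a median log2 fold change of -0.71 in LLC1 and 0.29 in vehicle mice. The part of these cells in the differences of Igf2, H19 and Grb10 was not tested.

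**Figure D5:**
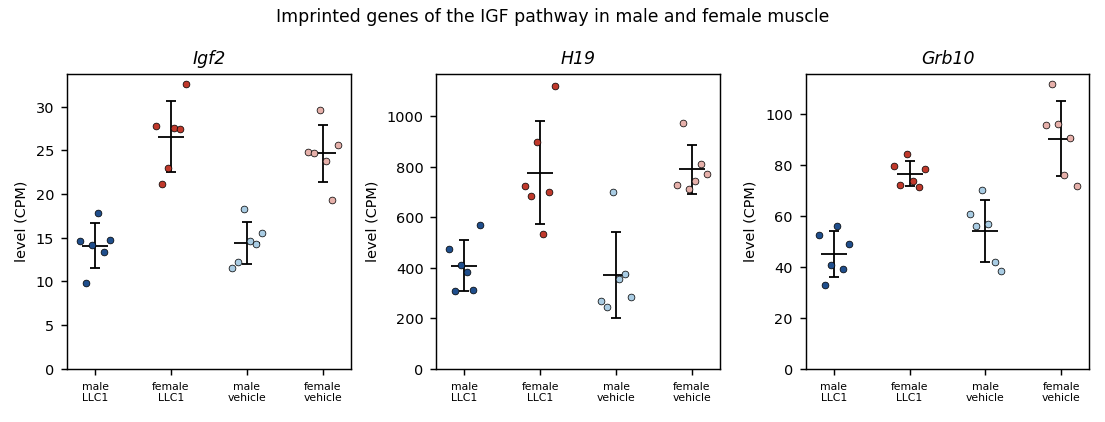
Level in CPM (vertical axes, from 0) of Igf2, H19 and Grb10 in each male and female mouse (points) of the LLC1 and vehicle groups, with the mean and SD (bars, n = 6). Males lie below females in both treatments for Igf2 (9.80 to 18.3 against 19.4 to 32.6 CPM) and Grb10, while H19 overlaps in LLC1 mice.

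The other genes of the pathway were taken from 5 lists of 62 genes, of which 59 were tested. Igfbp1 and Irs4 had 0 counts in every library, and Igfbp2 had at most 7. With LLC1 the test called 13 of the 59 in females (11 higher, 2 lower) and 24 in males (16 higher, 8 lower), and none for the interaction. These are 22.0% of the 59 in females, against 9.92% of all tested genes, and 40.7% in males, against 36.3%. Between the sexes it called 15 in LLC1 mice (7 higher and 8 lower in males) and 10 in vehicle mice (6 and 4). That is 25.4% of the 59 in LLC1 mice, against 15.7% of all tested genes, and 16.9% in vehicle mice, against 6.23%. The 10 genes and these lists were chosen with earlier results of these data known. Their shares beside those of all tested genes are therefore a description and not a test. The counts per list below stand beside the same shares of all tested genes. A gene given below as called with LLC1 in a single sex was not called in the other, which does not show that the sexes differ.

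Of 9 tested carriers, clearance and release factors of IGFs, 2 rose in female LLC1 mice, and 1 rose and 1 fell in males. Stc1, which encodes stanniocalcin 1, an inhibitor of the protease that frees IGFs from IGFBP4, rose in both sexes. It had 0.914 to 1.73 CPM in female LLC1 against 0.137 to 0.710 CPM in female vehicle mice, and 0.597 to 4.35 CPM in male LLC1 against 0.294 to 0.795 CPM in male vehicle mice. The groups did not overlap in females and met at 1 LLC1 mouse in males (log2 fold change 1.96 ± 0.37, adjusted p = 0.00126, and 2.44 ± 0.35, adjusted p = 3.15e-05). Igfbp7, a low-affinity relative of the binding proteins, rose in females (0.56 ± 0.14, adjusted p = 0.0129). Igf2r fell in males (-0.24 ± 0.08, adjusted p = 0.0203), a call lost without male LLC1 mouse 1-5 (0.0556). Between the sexes, Stc2 was lower in male vehicle mice (-1.58 ± 0.35, adjusted p = 0.00783). It was also lower in male LLC1 mice (-1.11 ± 0.34, adjusted p = 0.0278), a call lost without female LLC1 mouse 1-4 (0.0564), female LLC1 mouse 2-5 (0.0907) or male LLC1 mouse 1-5 (0.0741).

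Of 6 genes of growth hormone receptor signalling, which drives Igf1 transcription, 1 rose in females, and 2 rose and 1 fell in males. Ghr, the growth hormone receptor gene, fell in male LLC1 mice, with 73.7, 116 and 168 CPM (lowest, median, highest) against 142, 163 and 175 CPM in male vehicle mice. The male groups overlapped at the highest LLC1 mouse (log2 fold change -0.45 ± 0.12, adjusted p = 0.00558). Female LLC1 mice had 131, 155 and 166 CPM of Ghr and female vehicle mice 156, 167 and 192 CPM (-0.14 ± 0.12, adjusted p = 0.503). Stat5b, the transcription factor downstream of that receptor, rose in males (0.60 ± 0.11, adjusted p = 4.32e-04), as did Stat5a (0.23 ± 0.08, adjusted p = 0.0219), a call lost without male LLC1 mouse 2-4 (0.0506) or 2-5 (0.0645). Cish, a STAT5-induced feedback inhibitor, had 4.63, 9.92 and 40.4 CPM in female LLC1 mice against 1.74, 2.42 and 3.12 CPM in female vehicle mice. The female groups did not overlap (2.73 ± 0.50, adjusted p = 0.00145). In males Cish had 2.63 to 11.1 CPM with LLC1 and 1.93 to 11.7 CPM with vehicle (-0.20, adjusted p = 0.774), and the interaction did not pass (-2.93 ± 0.69, unadjusted p = 3.18e-04, adjusted p = 0.188).

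Of 18 genes of the PI3K-AKT arm, 4 rose and 0 fell in females, and 8 rose and 1 fell in males. Pik3r1, the regulatory subunit of phosphatidylinositol 3-kinase, had 55.2, 144 and 302 CPM in male LLC1 mice against 45.4, 54.2 and 58.0 CPM in male vehicle mice. All but 1 of the LLC1 mice, mouse 2-2, lay above every vehicle mouse (log2 fold change 1.66 ± 0.29, adjusted p = 2.74e-04). Akt1, a kinase of the AKT family, rose in males (0.99 ± 0.20, adjusted p = 6.98e-04) and in females (0.61 ± 0.20, adjusted p = 0.0499), the female call being lost without any one of 17 of the 24 libraries (0.0562 to 0.103). Gsk3b, a kinase that AKT inhibits, rose in males (0.77 ± 0.12, adjusted p = 6.41e-05) and in females (0.50 ± 0.12, adjusted p = 0.00852). Tbc1d4, the AKT substrate that restrains glucose transporter traffic, rose in females (0.53 ± 0.13, adjusted p = 0.0113) and in males (0.43 ± 0.13, adjusted p = 0.0128). Tbc1d1, its relative, rose in males (0.86 ± 0.27, adjusted p = 0.0151), a call lost without male LLC1 mouse 1-5 (0.0554) or 2-4 (0.0526). Mtor rose in females (0.31 ± 0.09, adjusted p = 0.0287), a call lost on leaving out LLC1 mouse 2-3 (0.0710), vehicle mouse 2-2 (0.0546) or vehicle mouse 2-3 (0.0563). Gsk3b was also higher in male than in female LLC1 mice (0.70 ± 0.12, adjusted p = 5.29e-04). Among vehicle mice its log2 fold change, male over female, was 0.43 ± 0.12 (adjusted p = 0.0281). That call did not survive leaving out any one of female mouse 2-1 and male mice 1-1, 1-2, 2-4 and 2-5 (0.0522 to 0.0756).

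Of 12 tested adaptors of the receptors, 1 rose in females, and 2 rose and 2 fell in males. Grb2, which links the receptors to the RAS pathway, fell in males (-0.29 ± 0.06, adjusted p = 5.27e-04), with every LLC1 mouse below every vehicle mouse. Gab1 (0.35, adjusted p = 0.0480) and Sos1 (-0.19, adjusted p = 0.0464) in males lost their calls without 20 and 15 of the 24 libraries. Ptpn11, the phosphatase SHP2 that binds IRS proteins, was higher in males in LLC1 mice (0.68 ± 0.09, adjusted p = 4.64e-05) and in vehicle mice (0.56 ± 0.09, adjusted p = 4.51e-04), without overlap in either.

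Of 14 inhibitors, 3 rose and 2 fell in females, and 3 rose and 3 fell in males. Grb14, an adaptor that blocks the insulin receptor kinase, fell in both sexes. It had 3.95, 4.80 and 5.70 CPM in female LLC1 mice against 9.50, 10.6 and 15.8 CPM in female vehicle mice, and 2.83, 3.66 and 8.07 CPM in male LLC1 mice against 7.29, 10.7 and 14.1 CPM in male vehicle mice. No female LLC1 mouse reached a vehicle mouse, and in males 1 LLC1 mouse did (log2 fold change -1.26 ± 0.22, adjusted p = 6.72e-04, in females, and -1.25 ± 0.22, adjusted p = 2.47e-04, in males). Socs3, a cytokine-induced inhibitor that also targets IRS proteins, had 6.08, 13.5 and 21.3 CPM in female LLC1 mice against 3.11, 5.02 and 6.03 CPM in female vehicle mice. Male LLC1 mice had 6.58, 8.98 and 10.7 CPM of Socs3 and male vehicle mice 1.84, 3.65 and 4.63 CPM, without overlap in either sex (1.54 ± 0.24 in females, adjusted p = 1.83e-04, and 1.37 ± 0.24 in males, adjusted p = 2.61e-04). Neutrophil markers rose in the same groups, as given above, and their part in the Socs3 rise was not tested. Inppl1, the lipid phosphatase SHIP2, fell in males (-0.68 ± 0.11, adjusted p = 9.23e-05). In females it stood at -0.35 (adjusted p = 0.0425), a call lost without any one of 15 libraries (0.0506 to 0.135). Ptpn1, the insulin receptor phosphatase PTP1B, rose in males (0.50 ± 0.09, adjusted p = 4.17e-04). It also rose in females (0.31 ± 0.09, adjusted p = 0.0398), a call lost without any one of LLC1 mice 1-4, 1-5, 2-3 and 2-5 and vehicle mice 1-3, 2-1, 2-2 and 2-3 (0.0513 to 0.0718). Pik3ip1, an inhibitor of phosphatidylinositol 3-kinase, rose in females (0.60 ± 0.17, adjusted p = 0.0232), a call lost on leaving out LLC1 mouse 2-3 (0.0523), LLC1 mouse 2-4 (0.0671) or vehicle mouse 1-4 (0.0547). It also rose in males (0.45 ± 0.17, adjusted p = 0.0366), a call lost without any one of LLC1 mice 1-5, 2-2, 2-4 and 2-5 and vehicle mice 1-1, 1-3 and 1-4 (0.0560 to 0.0946).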

How the data were processed

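Poly(A) RNA of 24 gastrocnemius samples was made into unstranded TruSeq version 2 libraries with 12 cycles of PCR, per the labels' protocols. Per the submitters' processing notes, CASAVA, STAR and featureCounts were used with the genome build mm10. Tool versions, options, the annotation and the handling of reads over several genes were not given in the sources used here. Integer counts of reads per gene, not normalized, were deposited by the authors beside each gene's position and length, and every sample column was used. The gene lengths, in bases, are the deposited ones.

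Groups were taken from the titles. Counts of 17773 genes left by filterByExpr were tested with edgeR 4.0.16 (R 4.3.3, limma 3.58.1) by its quasi-likelihood F-test, with TMM factors (0.924 to 1.10), robust dispersions and 4 group means over all 24 libraries (20 residual degrees of freedom). P-values were adjusted by Benjamini-Hochberg over all 17773 genes within each of 5 comparisons, and a gene was called below 0.05. Standard errors (SE) follow from the F statistic, and 95% confidence intervals are not adjusted for the number of genes. CPM divide each count by the TMM-scaled library size in mega-counts, and FPKM are CPM per kilobase of deposited gene length. The 10 genes and all lists were chosen with earlier results of these data known. All 10 are given in every comparison. From each other pathway list and in each comparison at most the 4 called genes with the largest change were taken, and a gene so named may be given in a further comparison where it was called, and for each of the 10 that was called with LLC1 the 3 genes most alike over 24 libraries. Some genes that this rule names are not reported here. The macrophage marker Adgre1 is listed as Emr1 in the table and was matched by gene ID. Promoters are RefSeq's (GRCm38.p6), and Insr was not matched there. The fits were tested on simulated data. Alternatives were DESeq2 1.42.0, limma-voom, other size factors, no filter, no robust dispersions, fits of only the groups compared, title numbers as a block, and leaving out each library. For the 10 genes, counting precision is that of 219 to 30077 counts per gene and library. Some other named genes had fewer, such as Stc1 with 6 counts in female vehicle mouse 2-2 and Socs3 with 59 in male vehicle mouse 2-4.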

Additional observations from a re-analysis of the deposited data

Results flagged for a closer look

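Each of the 10 genes was examined in each of the 4 groups for a mouse that stands far from the others, 40 groups of values in all, and 1 was flagged. Igfbp5 had 667.3 CPM in male vehicle mouse 1-3, and the nearest of the other male vehicle mice had 509.8 CPM. The gap is 0.781 of the range of the group. At the 95% level used, chance alone flags about 5% of such groups. Without this mouse Igfbp5 still fell in male LLC1 mice, since the call held whichever library was left out. The same mouse also had the highest Igf1 of all 24 mice, at 50.6 CPM.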

How the results depend on the processing

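In females the count of 3 called genes was 1 with the title number as a replicate block and ran from 1 to 4 when single libraries were left out. The counts of 6 in males, 0 for the interaction, 3 between the sexes in LLC1 mice and 1 in vehicle mice stayed within 1.5 times. Deviations of same-numbered LLC1 and vehicle mice of a sex correlated at -0.23 to 0.07, which does not settle whether the numbers share anything. The labels do not explain the title numbers, so the replicate block tests no known pairing. With it Igf1 and Igfbp3 in males stood at adjusted p = 0.0540 and 0.0780, Igf1r in females at 0.166, and Insr in females and between the sexes at 0.313 and 0.0810. Insr was also lost with no filter in females (0.0549) and, between the sexes in LLC1 mice, with limma-voom (0.0539), no filter (0.0625) or only those groups fitted (0.138). Calls of Igfbp6 in females, of Insr, Irs2, Igfbp5 and Igfbp6 in males, of Igf2 and Irs2 between the sexes in LLC1 mice, and of Igf2 in vehicle mice held in all alternatives run.

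Signs turned only for differences that did not pass: with that block, Igfbp4 in females (0.0681), Igf2 (0.0369) and Irs1 (0.19) in males, and with the first digit as a replicate block, Igfbp4 in females (0.0255) and males (0.000554). Leaving out single libraries gave Igfbp4 -0.0932 to 0.0820 in females and -0.134 to 0.0134 between the sexes in vehicle mice, Igf2 -0.113 to 0.0480 in males, Igf1r -0.0369 to 0.140 between the sexes in LLC1 mice, and Irs1 -0.0980 to 0.152 for the interaction. The cause was not tested. Over all tested genes, calls numbered 480 with that block in place of 1763 in females, 3607 in place of 6449 in males and 269 in place of 1107 between the sexes in vehicle mice. Without 1 library they numbered 919 to 2283 in females, 1606 to 3724 between the sexes in LLC1 mice (966 with only those groups fitted) and 659 to 1476 in vehicle mice. For the interaction they were 44 with DESeq2 and 0 to 7 otherwise. A fit of only 2 groups gives no interaction.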

Other observations

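For each gene called with LLC1, the 3 genes with the highest Pearson correlation of log2 CPM over the 24 libraries were listed, as a description without a test. All 24 points share the lanes of their groups, so r within groups (values centred on each group mean) is given beside it. Igfbp5 had the closest companions: Steap3 (r = 0.980, 0.967 within groups), Pde4a (0.970 and 0.930) and Mmp15 (0.968 and 0.935). Irs2 was most alike to Hnrnpul1 (0.950 and 0.867), Ankhd1 (0.922 and 0.796) and Inpp4a (0.917 and 0.755). Insr was most alike to Uggt1 (0.938 and 0.820), Nop2 (0.938 and 0.836) and the pathway gene Gsk3b (0.934 and 0.850). The nearest for Igfbp6 was Cilp2 (0.924 and 0.868), for Igfbp3 Zmiz1 (0.902 and 0.838), for Igf1 Slc9a9 (0.898 and 0.851) and for Igf1r Gm21985 (0.898 and 0.849).

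Further calls between the sexes came from the pathway lists. Ide, which encodes an insulin-degrading protease, was higher in male than in female LLC1 mice (log2 fold change 0.56, adjusted p = 0.0175). Jak2, the kinase of the growth hormone receptor, was higher in male vehicle mice (0.70, adjusted p = 0.00446). Enpp1, an inhibitor of the insulin receptor, fell in male LLC1 mice (-0.47, adjusted p = 0.00870) and was lower in male than in female LLC1 mice (-0.45, adjusted p = 0.0235). That call between the sexes was lost without female LLC1 mouse 2-1 (0.0768) or male LLC1 mouse 1-5 (0.0547) or 2-4 (0.0585).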
